A study of Mus musculus with 6 samples.

Results

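The HoxA cluster was examined through 9 of its genes, Hoxa2, Hoxa3, Hoxa4, Hoxa5, Hoxa6, Hoxa7, Hoxa9, Hoxa10 and Hoxa11, on promoter arrays of mouse embryonic stem (ES) cells. A probe was counted as a member probe when the array annotation listed 1 of these genes by symbol or by transcript accession, whatever its level. This gave 333 of the 237195 non-control probes on the first array design and none on the second design. Of these, 332 carried no outlier flag, and 305 were named for a member gene, the others for a neighbouring gene. Rybp occupancy had been profiled with an anti-Rybp antibody by chromatin immunoprecipitation on arrays (ChIP-chip). The ES cells were wild type (WT), constitutively lacking Eed (Eed-KO), or constitutively lacking Dnmt1 (Dnmt1-KO). The labels name no allele, clone or strain, and they state culture in serum on irradiated fibroblast feeders or on gelatin without saying which cells had feeders. A probe's level is log2 of immunoprecipitated (IP) over input signal, centred on the median of its array, so that 0 is the typical probe and 1 is 2-fold above it. The arrays measure occupancy and not expression, so neither the knockouts nor the cell type could be checked on RNA.

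Each member probe was read on 1 array per genotype. There was thus no replicate and no test between genotypes, and precision is limited to what 1 array gives. The SD and SE values given are over the probes of a region and cover neither cultures nor hybridisations. The Dnmt1-KO array had a wider spread, with an SD of 0.957 over its probes, against 0.413 in WT and 0.449 in Eed-KO. It was also read on another scanner model (G2505C in place of G2505B) with another software version, so for Dnmt1-KO the genotype and the scan cannot be told apart. For that reason its values are also given after the arrays were set to 1 spread, which divides Dnmt1-KO levels by the ratio of median absolute deviations (0.538 against 0.233 in WT).

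Hox genes encode homeodomain transcription factors that give cells their position along the head-to-tail axis, and the HoxA genes lie in the order in which they act, from Hoxa2 in the hindbrain to Hoxa11 in the limb and uterus. In ES cells the clusters are silent and covered by Polycomb proteins. Polycomb repressive complex 2 (PRC2), of which Eed is a core subunit, methylates histone H3, and PRC1 ubiquitylates histone H2A. Rybp is a subunit of variant PRC1, which can be recruited without PRC2. Dnmt1 copies DNA methylation at CG dinucleotides after replication.

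In the array annotation the member probes covered chromosome 6 from 52088019 to 52180903, or 92.9 kb. These coordinates follow that annotation, and the sources used here do not give its genome build. All members lie on the minus strand, so upstream means higher coordinates. Probe length was 45 to 60 bases, neighbouring probes began a median of 167.5 bp apart, and the probes formed 3 tiled blocks. The anterior block (52088019 to 52104398) held 82 probes around the start of Hoxa2. The middle block (52118513 to 52143627) held 126 probes around the starts of Hoxa4, Hoxa3, Hoxa5 and Hoxa6, and the posterior block (52154568 to 52180903) held 124 around those of Hoxa9, Hoxa10 and Hoxa11. Hoxa7 lies in an untiled gap of 10.9 kb, and its nearest probe was 4559 bp from its start. The Hoxa3 start used by the array, at 52130526, lies between those of Hoxa4 (52121286) and Hoxa5 (52134170). In RefSeq (GRCm38.p6 gene table) the Hoxa3 gene encloses Hoxa4, Hoxa5 and Hoxa6 and reaches toward Hoxa2, with the long noncoding RNA gene Hoxaas2 between them. Probes far upstream of Hoxa2 can therefore also lie within Hoxaas2 or Hoxa3.

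The following member probes span or adjoin annotated starts and are shown because they give the level at the start itself. They are written 5′ to 3′ as synthesised on the array, with CG dinucleotides in capitals. All 4 match the RefSeq promoter sequence (GRCm38.p6) of the named gene on the opposite strand.
Hoxa2 (52094392-52094450): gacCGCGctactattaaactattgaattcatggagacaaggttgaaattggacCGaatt
Hoxa5 (52134233-52134277): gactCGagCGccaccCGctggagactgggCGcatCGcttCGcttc
Hoxa10 (52164497-52164553): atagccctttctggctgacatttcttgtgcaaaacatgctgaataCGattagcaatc
Hoxa11 (52175371-52175421): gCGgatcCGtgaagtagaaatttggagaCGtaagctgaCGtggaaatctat
With the first base of the RefSeq gene counted as 0, the Hoxa2 probe covers bases -36 to 22 and read 1.44 in WT, 1.83 in Eed-KO and 1.40 in Dnmt1-KO. The Hoxa5 probe covers bases -107 to -63, has 6 CG dinucleotides and read 0.23, 0.14 and 1.10. The Hoxa10 probe, from -31 to 25, read 1.45, 1.30 and 3.12, and the Hoxa11 probe, from -28 to 22, read 1.78, 2.03 and 2.28. At these starts the Hoxa2, Hoxa10 and Hoxa11 probes were thus above 1 in all 3 genotypes, and the CG-rich Hoxa5 probe was near the array median in WT and Eed-KO.

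A further 6 probes are shown because they mark the ends of the range described below, again with CG in capitals.
Hoxa4, 498 bp downstream (52120766-52120810): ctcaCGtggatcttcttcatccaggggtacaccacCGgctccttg
Hoxa4, 4236 bp upstream (52125493-52125552): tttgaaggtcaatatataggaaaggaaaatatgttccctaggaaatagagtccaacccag
Hoxa11, 1695 bp upstream (52177016-52177075): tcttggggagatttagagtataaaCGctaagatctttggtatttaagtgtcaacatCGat
Hoxa11, 3103 bp upstream (52178426-52178481): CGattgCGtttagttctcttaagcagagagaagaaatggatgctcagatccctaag
Hoxa2, 2524 bp upstream (52096909-52096968): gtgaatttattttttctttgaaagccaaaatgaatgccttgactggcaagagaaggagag
Hoxa9, 2211 bp upstream (52159140-52159189): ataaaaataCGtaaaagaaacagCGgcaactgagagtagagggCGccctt
The first of them had the largest Dnmt1-KO minus WT difference (0.20 in WT, 4.16 in Dnmt1-KO) and the second the lowest (0.14 and -1.69). The third read 1.29 in WT and -0.23 in Dnmt1-KO, and once the arrays were set to 1 spread, where Dnmt1-KO read -0.10, its difference was the lowest. The fourth had the highest WT level of all member probes, 1.86. The fifth had the lowest Eed-KO minus WT difference, with 0.97 in WT and 0.0015 in Eed-KO. The last was high in all genotypes, at 1.70, 1.87 and 1.82.

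In WT cells Rybp signal covered the tiled cluster broadly. Of 332 member probes, 326 (98.2%) lay above 0, the median of the array, and 100 (30.1%) reached 1, called the bound level, against 2.68% of the probes of that array. The median member probe was at 0.73 with quartiles of 0.49 and 1.05, while the highest was only 1.86. Many neighbouring probes were therefore moderately raised, and no member probe reached 2. The signal was not limited to the member starts used by the array. Among member probes over 3000 bp upstream of the nearest such start, 25 of 76 (32.9%) reached 1, against 0.819% of all array 1 probes in that position. Within 500 bp of a start the shares were 16 of 39 (41.0%) and 5.44%, and between 500 and 1500 bp downstream they were 23 of 41 (56.1%) and 4.76%. Probes far from these starts can lie near others, so signal away from every start was not shown. Some upstream of Hoxa2 were annotated to a divergent promoter shared with another transcript, and RefSeq places the Hoxa3 start elsewhere.

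**Figure D1:**
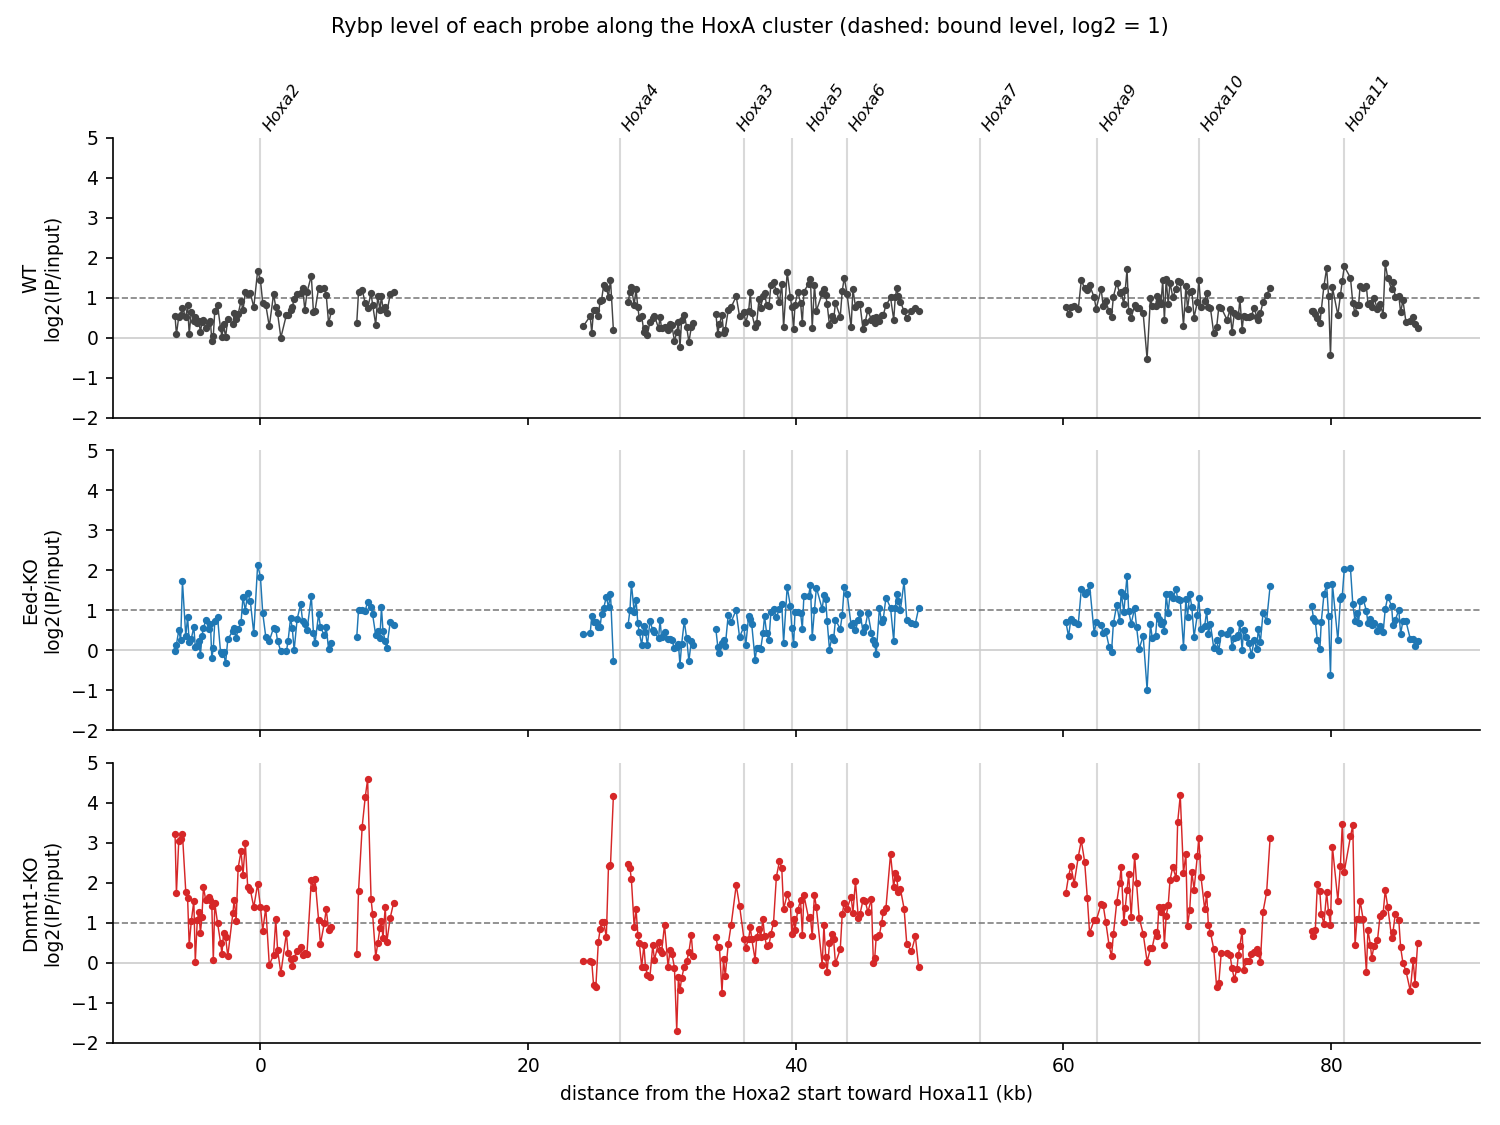
Rybp level, log2(IP/input), of each of the 332 member probes (points, joined where neighbours lie within 1 kb) against distance from the Hoxa2 start in kb, for WT (top), Eed-KO (middle) and Dnmt1-KO (bottom), with grey lines at the annotated starts and a dashed line at the bound level of 1. WT and Eed-KO stay at or below 2.13, whereas Dnmt1-KO has narrow maxima of up to 4.58 next to stretches near or below 0.

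Occupancy in WT was highest at the posterior end. The probes nearest Hoxa9, Hoxa10 and Hoxa11 had a median of 0.82 and 45 of 124 at the bound level. Those nearest Hoxa4, Hoxa5, Hoxa6 and Hoxa7 had a median of 0.69 with 31 of 106, and those nearest Hoxa2 and Hoxa3 had 0.63 with 24 of 102. The medians differ by less than the SD of 0.40 over all member probes. In all, 7 stretches of at least 4 neighbouring probes reached 1 throughout. They held 32 of the 332 member probes (9.64%), against 0.688% of array 1 probes in such stretches. Of the 7, 5 lay next to Hoxa9, Hoxa10 or Hoxa11. The longest had 6 probes from 52178426 to 52179497, upstream of Hoxa11, with a mean of 1.33. The highest, with a mean of 1.44, had 4 probes over the Hoxa11 start (52175082 to 52175881). The cluster also had valleys. A stretch of 10 neighbouring probes between Hoxa4 and Hoxa3 (52124355 to 52125918) had a WT mean of 0.20, 10 probes downstream of the Hoxa2 start (52089678 to 52090922) had 0.27. Both stretches stayed under 0.5 throughout.

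Levels at the starts were compared through the 6 probes nearest each annotated start, a set chosen without regard to level. Excluding Hoxa7, which has none nearby, the 8 members had WT means from 0.73 (Hoxa3) to 1.20 (Hoxa11). Hoxa11 alone reached 1, that is 1 of 8, against 1.94% of the start sets on both designs. The other 7 lay between 0.73 and 0.99, with SDs of 0.24 to 0.50 over their probes, so that neighbours in this order do not differ beyond probe scatter. Every one of the 8 was above 0.43, the upper quartile of all start sets, whose median was 0.20. In Eed-KO again only Hoxa11 reached 1 (2.07% of all start sets), and in Dnmt1-KO 7 of 8 did (37.9% of all start sets).

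**Figure D2:**
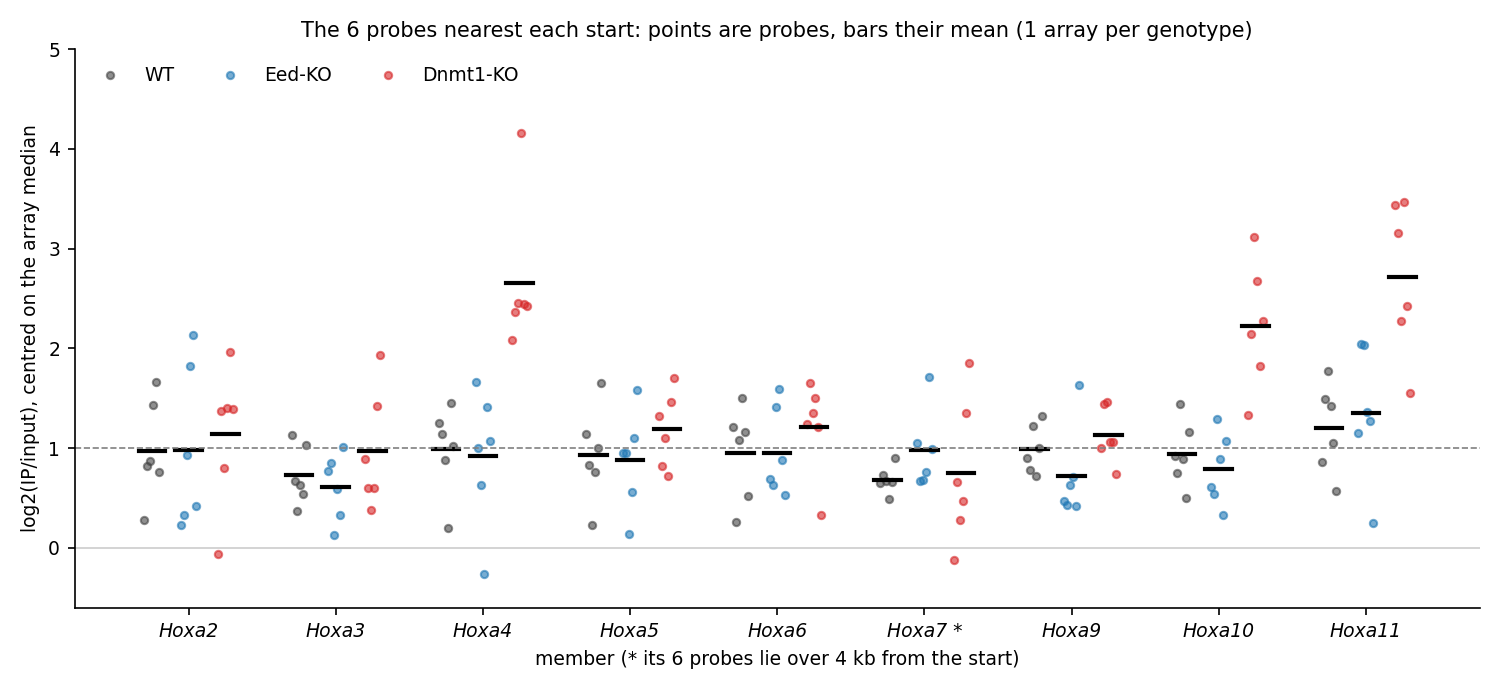
Log2(IP/input) of the 6 probes nearest each member's start (points) and their mean (bars) in WT, Eed-KO and Dnmt1-KO, with 1 array per genotype and a dashed line at the bound level of 1. Hoxa4, Hoxa10 and Hoxa11 stand at 2.65, 2.23 and 2.72 in Dnmt1-KO, above their other genotypes, while the remaining members lie between 0.75 and 1.22 there.

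Hoxa2, which specifies the second branchial arch, had start levels of 0.97 ± 0.50 (SD over 6 probes) in WT, 0.98 ± 0.82 in Eed-KO and 1.15 ± 0.70 in Dnmt1-KO. The differences from WT were 0.00 ± 0.16 (SE over 6 probes) and 0.17 ± 0.16, both within probe scatter. Its highest WT probe lay 203 bp downstream of the start, at 1.67, and read 2.13 in Eed-KO, the highest Eed-KO value of the cluster. Hoxa3, needed for thymus and parathyroid, had the lowest start levels of the members with nearby probes, 0.73 ± 0.29 in WT, 0.61 ± 0.33 in Eed-KO and 0.97 ± 0.60 in Dnmt1-KO. RefSeq places the Hoxa3 start elsewhere, and the 1 member probe found in that promoter (bases -79 to -35) read 0.49, 0.76 and 0.47.

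Hoxa4, Hoxa5 and Hoxa6 pattern the cervical and thoracic axis, and Hoxa5 is also required in the lung. Hoxa4 had start levels of 0.99 ± 0.43 in WT, 0.92 ± 0.68 in Eed-KO and 2.65 ± 0.75 in Dnmt1-KO, with all 6 probes higher in Dnmt1-KO and a difference of 1.66 ± 0.47, which was 0.15 with the arrays set to 1 spread. These 6 probes flank the start, the nearest at 498 bp. Hoxa5 had 0.94 ± 0.47, 0.88 ± 0.49 and 1.19 ± 0.38, and its highest WT probe, 396 bp downstream, read 1.65, 1.59 and 1.71. Hoxa6 had 0.96 ± 0.47, 0.96 ± 0.44 and 1.22 ± 0.46. At Hoxa5 and Hoxa6 all 3 genotypes overlapped. The 6 probes closest to Hoxa7, a thoracic vertebral gene, lay 4559 to 5927 bp downstream of its start and averaged 0.69 in WT, 0.98 in Eed-KO and 0.75 in Dnmt1-KO. They describe the region between Hoxa7 and Hoxa6 and not the Hoxa7 promoter. Among them is the probe found in the RefSeq Hoxa3 promoter.

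The posterior members act in limb and urogenital tract, and Hoxa9 and Hoxa10 also in blood progenitors. Hoxa9 had start levels of 0.99 ± 0.24 in WT, 0.72 ± 0.47 in Eed-KO and 1.13 ± 0.28 in Dnmt1-KO. Of its 6 probes, all but 1 were lower in Eed-KO, with a difference of -0.28 ± 0.15. Hoxa10 had 0.95 ± 0.33, 0.79 ± 0.36 and 2.23 ± 0.63, with every probe lower than WT in Eed-KO (difference -0.16 ± 0.04) and every probe higher in Dnmt1-KO (1.28 ± 0.20, and 0.018 with the arrays set to 1 spread). Over all start sets the Eed-KO difference had a median of -0.06 and a lower quartile of -0.16, so the Hoxa10 value was not unusual. The unscaled Dnmt1-KO difference of all start sets had a median of 0.52 and an upper quartile of 0.92. Hoxa11 had the highest start level in WT and Eed-KO, 1.20 ± 0.45 and 1.35 ± 0.67, and 2.72 ± 0.76 in Dnmt1-KO, a difference of 1.52 ± 0.30 with all 6 probes higher, which was -0.021 with the arrays set to 1 spread. On that scale the Dnmt1-KO differences of the other 5 members with probes near the start lay between -0.51 (Hoxa9) and -0.31 (Hoxa3). The Eed-KO difference of Hoxa11, 0.15 ± 0.12, was about as large as its SE.

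Eed-KO cells lack PRC2, and the comparison with WT addresses whether Rybp stays on the cluster there. Rybp signal remained on most of it. Eed-KO member probes had a median of 0.64, 312 of 332 lay above 0, and 78 (23.5%) reached 1, against 2.96% of array 1 probes. Of the 100 member probes at the bound level in WT, 66 were also at it in Eed-KO (66.0%, against 67.3% for array 1), and 60 of the 100 read lower in Eed-KO, against 57.3%. The share retained was therefore close to that of the array as a whole. The pattern along the cluster was also kept, with a correlation across the 332 member probes of r = 0.79 (Spearman 0.77), given as a description since neighbouring probes share fragments and each array is 1 hybridisation. The same correlation over 231948 probes of array 1 was 0.74.

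Across the cluster as a whole Eed-KO was slightly lower. The median probe difference was -0.08, against -0.01 over array 1, and 210 of 332 member probes (63.3%) were below WT, against 51.2%. Values lower by at least 0.5 were seen at 29 member probes (8.73%, against 4.93%) and values higher by as much at 9 (2.71%, against 4.05%). A difference of at least 1 upward was seen at 1 member probe (0.227% of array 1) and downward at none (0.426% of array 1). In all, 6 stretches of at least 4 neighbouring probes were lower than WT by at least 0.25 at every probe. They held 38 member probes (11.4%), against 1.84% of array 1 probes in such stretches. The longest, 11 probes annotated inside Hoxa5 (52131348 to 52132994), had a mean of 0.91 in WT and 0.43 in Eed-KO. A stretch of 7 probes upstream of Hoxa2 (52098476 to 52099741) had 0.92 and 0.40, and 6 probes just upstream of Hoxa9 (52157200 to 52158171) had 0.85 and 0.38. The remaining 3 lay farther upstream of Hoxa2, between Hoxa9 and Hoxa10, and upstream of Hoxa10, with Eed-KO means of 0.40, 0.12 and 0.08.

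Lower Eed-KO values were less frequent in the middle of the cluster, a contrast that was not tested. Probes nearest Hoxa4, Hoxa5, Hoxa6 and Hoxa7 had a median difference of 0.01 and 52 of 106 below WT. The anterior and posterior probes each had a median of -0.14, with 70 of 102 and 88 of 124 below WT. The highest Eed-KO minus WT differences were at single probes. They lay 4300 bp upstream of Hoxa6 (0.66 in WT, 1.72 in Eed-KO), 5820 bp downstream of Hoxa2 (0.75 and 1.72) and 2253 bp downstream of Hoxa6 (0.67 and 1.57). The first of these probes is next to the one found in the RefSeq Hoxa3 promoter. The lowest differences, -0.97, -0.91 and -0.88, lay 2524 bp upstream of Hoxa2, 2503 bp downstream of Hoxa5 and 4787 bp upstream of Hoxa2.

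**Figure D3:**
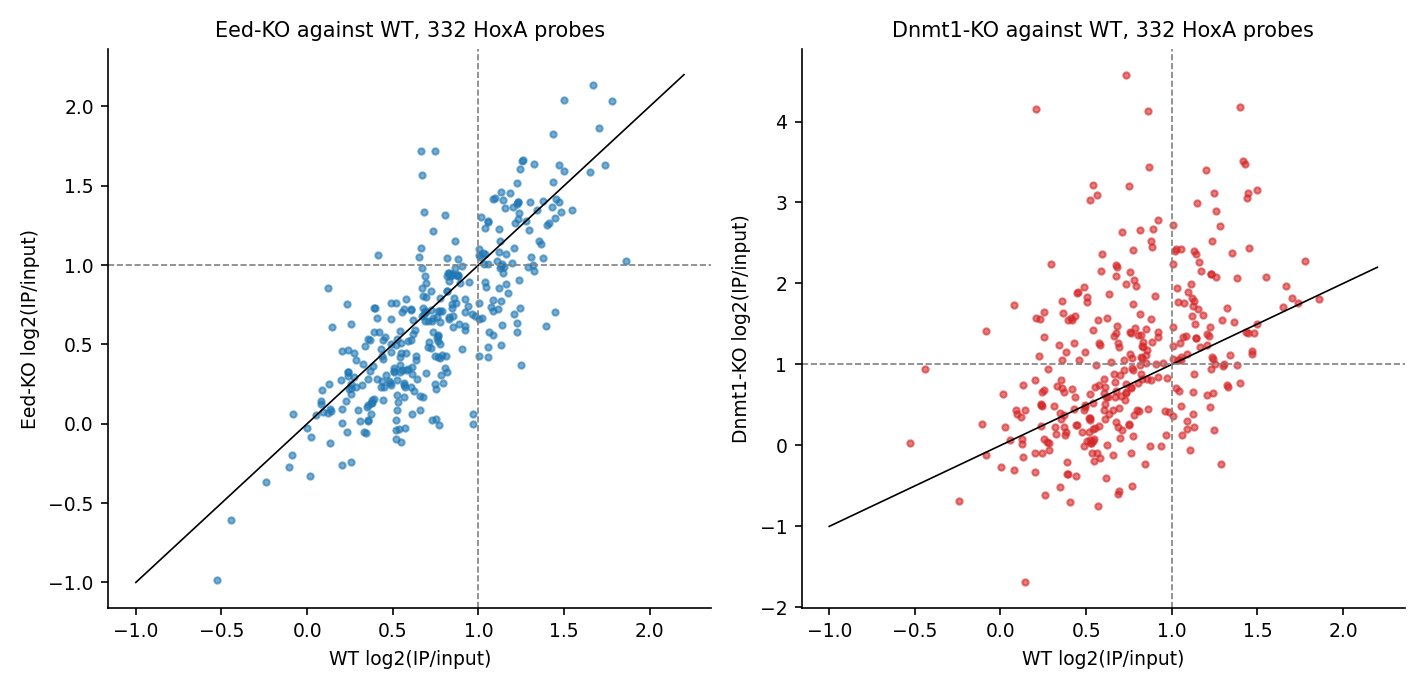
Log2(IP/input) of the 332 member probes in Eed-KO (left) and Dnmt1-KO (right) against WT, with dashed lines at 1 and a solid line where both are equal; each point is a probe on 1 array per genotype, and the vertical axes differ. Eed-KO points follow the line (r = 0.79), whereas Dnmt1-KO points spread widely around it (r = 0.44).

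In Dnmt1-KO the profile along the cluster had another shape. Member probes had a median of 0.99, and 164 of 332 (49.4%) reached 1, against 15.7% of array 1 probes. Of the 100 probes bound in WT, 77 were bound here too, against 80.6% for array 1. At the same time 298 member probes lay above 0, fewer than the 326 of WT. Differences of at least 1 upward were seen at 65 member probes (19.6%, against 11.3%) and downward at 11 (3.31%, against 8.73%). The correlation with WT across member probes was r = 0.44 (Spearman 0.46), against 0.53 over array 1. With the arrays set to 1 spread the median Dnmt1-KO level was 0.43, below the 0.73 of WT, and 36 member probes (10.8%, against 2.46%) reached 1. Before scaling the median difference of member probes from WT was 0.17, against 0.03 over array 1, and on the scale of 1 spread it was -0.32. Upward differences of at least 1 then numbered 2 (0.602%, against 0.952%) and downward ones 8 (2.41%, against 0.982%). The direction of the overall difference thus depends on how the wider Dnmt1-KO array is treated.

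What did not depend on the scale was the order of probes within the Dnmt1-KO array, since scaling multiplies all of them by the same factor. There the highest signal lay in narrow maxima. The highest value was 4.58, at 8013 bp upstream of Hoxa2 (WT 0.73). It was followed by 4.18 at 1382 bp downstream of the Hoxa10 start (WT 1.40) and 4.16 at 498 bp downstream of the Hoxa4 start, where WT read 0.20 and Eed-KO -0.26. The fourth was 4.13, at 7833 bp upstream of Hoxa2 (WT 0.86). After scaling, the 2 probes upstream of Hoxa2 and the Hoxa4 probe still had the highest differences from WT of the member probes, at 1.25, 0.93 and 1.59. Differences from WT, in contrast, do depend on the scale. Before scaling, 6 stretches of at least 4 probes were higher than WT by at least 1 throughout. They held 30 member probes (9.04%), against 3.78% of array 1 probes in such stretches. These included 6 probes 5571 to 6373 bp downstream of Hoxa2 (mean 0.49 in WT, 2.68 in Dnmt1-KO), 6 probes downstream of Hoxa9 (0.92 and 2.46), 5 probes over the Hoxa10 start (0.95 and 2.41) and 4 probes downstream of it (1.10 and 3.16). With the arrays set to 1 spread the Dnmt1-KO means of these 4 stretches were 1.16, 1.07, 1.04 and 1.37.

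Other stretches were lower in Dnmt1-KO. A stretch of 9 probes from 52096458 to 52097927, upstream of Hoxa2, had a mean of 0.92 in WT, 0.60 in Eed-KO and 0.19 in Dnmt1-KO. A stretch of 4 probes downstream of the Hoxa6 start (52136360 to 52136784) had 1.06, 1.10 and 0.20. In the valley upstream of Hoxa4, 5 probes (52125493 to 52126115) had 0.26 in WT and -0.64 in Dnmt1-KO. In all, 7 stretches of at least 4 probes were lower than WT by at least 0.25 throughout. They held 39 member probes (11.7%), fewer than the 14.0% of array 1 probes in such stretches. The mean probe GC content of the 7 stretches was 36.6% to 42.7%, and they held 1 to 5 CG dinucleotides in all. The 6 stretches higher by at least 1 had 39.4% to 54.1% GC and 2 to 15 CG dinucleotides. The part of base composition in these differences was not tested beyond the GC trend removal reported under the processing alternatives. The third lowest single Dnmt1-KO difference, -1.31, lay 1621 bp downstream of the Hoxa3 start, with 0.57 in WT and -0.74 in Dnmt1-KO.

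Probe levels were set against CG number in the same way. In WT the median member probe rose from 0.61 with no CG (134 probes) to 0.77 with 1 and 1.08 with 2, and was 0.85 with 3 or more (35 probes). In Dnmt1-KO it rose from 0.51 to 1.06, 1.35 and 1.71 (0.22, 0.46, 0.58 and 0.74 with the arrays set to 1 spread). Before scaling, 32 of the 35 probes with 3 or more CG (91.4%) reached 1, against 64.9% of such array 1 probes. Over all array 1 probes the Dnmt1-KO median likewise rose, from -0.15 to 1.29, so the dependence on CG number was not particular to the cluster. Member probes without CG were higher than array probes without CG in every genotype, at 0.61 against -0.06 in WT, 0.44 against -0.06 in Eed-KO and 0.51 against -0.15 in Dnmt1-KO. The correlations of level with CG number across member probes were 0.26 in WT, 0.26 in Eed-KO and 0.42 in Dnmt1-KO.

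**Figure D4:**
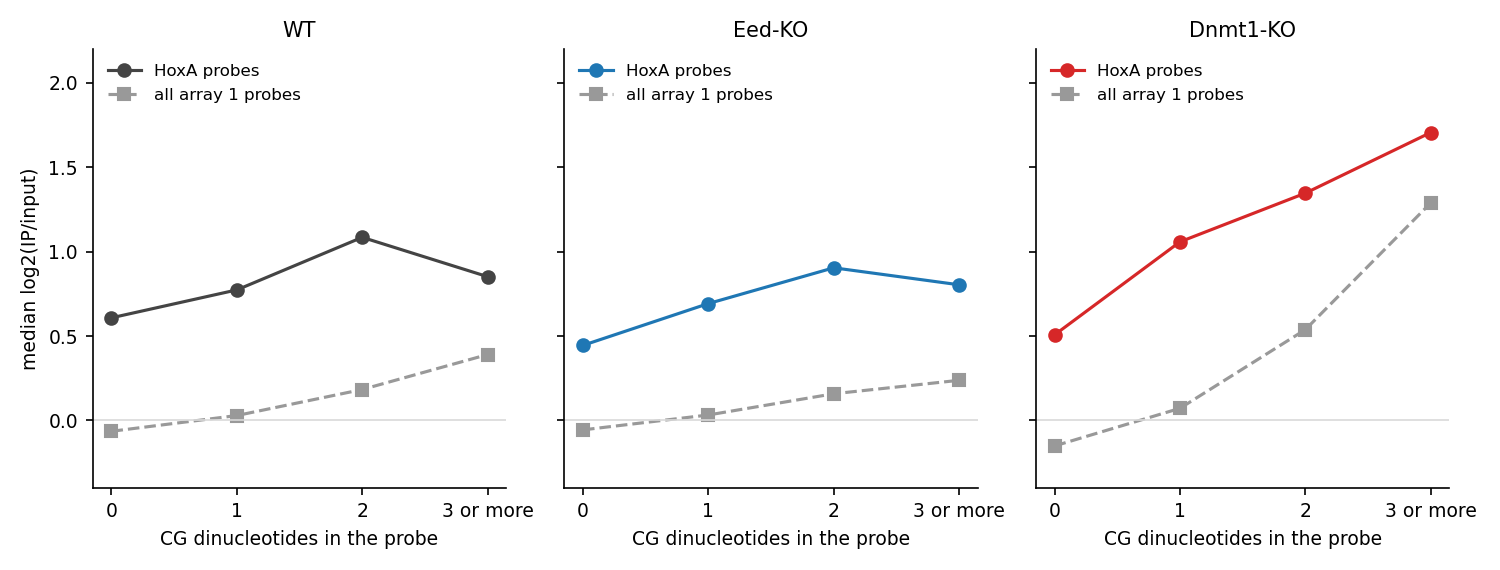
Median log2(IP/input) by the number of CG dinucleotides in the probe (0, 1, 2, or 3 and more) for the 332 member probes (circles) and all array 1 probes with an annotated gene (grey squares), in WT, Eed-KO and Dnmt1-KO. Member probes lie above the array in every bin, and the steepest rise is in Dnmt1-KO, from 0.51 to 1.71.

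The promoters themselves differ in CG number. RefSeq promoter sequences were found for 8 of the 9 members, all but Hoxa4. The 250 bases before the start are shown for the 3 posterior members, which hold both large and small Dnmt1-KO differences at the start, and for Hoxa5, which has the most CG of the members. They are written on the gene's strand with CG in capitals, in GRCm38.p6 coordinates, which are not those of the array.
Hoxa5 (chr6:52204588-52204837, minus strand): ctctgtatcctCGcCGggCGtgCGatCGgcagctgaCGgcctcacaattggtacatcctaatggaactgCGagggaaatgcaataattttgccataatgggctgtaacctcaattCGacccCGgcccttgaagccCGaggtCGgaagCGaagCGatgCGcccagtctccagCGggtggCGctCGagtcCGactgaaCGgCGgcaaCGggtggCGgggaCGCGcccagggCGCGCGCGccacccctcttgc
Hoxa9 (chr6:52227371-52227620, minus strand): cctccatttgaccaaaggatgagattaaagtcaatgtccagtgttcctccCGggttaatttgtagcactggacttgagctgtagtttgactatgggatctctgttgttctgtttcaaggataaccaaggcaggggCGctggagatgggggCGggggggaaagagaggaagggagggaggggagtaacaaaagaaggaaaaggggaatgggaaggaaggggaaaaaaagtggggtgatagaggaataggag
Hoxa10 (chr6:52234940-52235189, minus strand): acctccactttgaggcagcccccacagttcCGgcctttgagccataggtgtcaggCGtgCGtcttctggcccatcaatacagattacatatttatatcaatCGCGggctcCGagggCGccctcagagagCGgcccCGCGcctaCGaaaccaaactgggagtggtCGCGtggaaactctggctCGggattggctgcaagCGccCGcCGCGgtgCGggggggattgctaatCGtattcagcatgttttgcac
Hoxa11 (chr6:52245811-52246060, minus strand): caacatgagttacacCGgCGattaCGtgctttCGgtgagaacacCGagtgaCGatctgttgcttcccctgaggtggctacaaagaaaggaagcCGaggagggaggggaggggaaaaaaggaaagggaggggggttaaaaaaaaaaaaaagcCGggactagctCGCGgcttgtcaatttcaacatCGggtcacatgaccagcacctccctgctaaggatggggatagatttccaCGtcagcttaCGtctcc
Hoxa9, with 3 CG, had a Dnmt1-KO start level of 1.13. Hoxa10 with 20 and Hoxa11 with 13 had 2.23 and 2.72, and Hoxa5 with 28 had only 1.19, so the start levels did not follow CG number among these 4. Of 32851 RefSeq promoters, 71.0% have at least as many CG in this stretch as Hoxa9, 31.5% as Hoxa11, 17.9% as Hoxa10 and 7.61% as Hoxa5. RefSeq holds a second Hoxa10 promoter, not shown, with 7 CG (46.3%). The one shown is that matched by the probe at the Hoxa10 start of the array. These counts describe the sequence and not its methylation.

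Promoter levels comparable over the whole array set were taken from windows, that is, of all runs of 6 adjacent probes named for a gene and not longer than 3 kb, the one whose mean level in the 3 genotypes together was highest. Of the members, 7 had one. Hoxa3 had only 8 named probes, too scattered for a run, and Hoxa7 had none. Window levels in WT were 1.26 ± 0.42 (SD) for Hoxa11, 1.21 ± 0.23 for Hoxa10, 1.05 ± 0.47 for Hoxa5, 1.02 ± 0.30 for Hoxa9, 0.99 ± 0.43 for Hoxa4, 0.98 ± 0.19 for Hoxa2 and 0.94 ± 0.26 for Hoxa6. Thus 4 of 7 were at the bound level, against 5.15% of 16327 promoters, but all 7 lay between 0.94 and 1.26. The SDs overlap throughout, and the 3 just below the bound level and the 2 just above it are not separated by probe scatter. The Hoxa2 window lay 7907 bp upstream of the start and the Hoxa6 window 3684 bp upstream, so they describe the surrounding chromatin.

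In Eed-KO 4 of 7 windows were at the bound level (5.76% of promoters). Their levels ran from 0.92 at Hoxa4 to 1.44 at Hoxa11. The differences from WT lay between -0.07 ± 0.12 (SE) at Hoxa4 and 0.17 ± 0.13 at Hoxa11, with a median of 0.06. No member was called higher or lower by 1, rules met by 0.088% and 0.0% of the 1136 promoters bound in either genotype. In Dnmt1-KO all 7 windows were at the bound level, against 46.1% of promoters, with levels from 1.93 at Hoxa5 to 2.79 at Hoxa2. Of these 7, 6 were higher by at least 1, against 53.9% of promoters bound in either genotype, and none was lower by 1 (0.0398%). Because the Dnmt1-KO level took part in choosing the window, these differences, with a median of 1.37, favour places where Dnmt1-KO is high. The median over all promoters, with windows chosen in the same way, was 0.61. At the start sets, chosen without levels, the median difference of the 8 members was 0.26, below the 0.52 of all start sets. It was -0.36 for the 8 members with the arrays set to 1 spread. In unscaled windows chosen without Dnmt1-KO the median of the members was 0.71. With the arrays set to 1 spread, where 0.221% of promoters bound in either genotype were higher and 1.03% lower by 1, the same 7 windows had differences from -0.22 (Hoxa5) to 0.23 (Hoxa2).

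The 9 HoxA members were set beside all array genes of the other Hox clusters. In WT 30.1% of member probes reached 1, against 26.8% of HoxD probes (343), 14.9% of HoxB (295) and 12.9% of HoxC (318), and the medians were 0.73, 0.70, 0.53 and 0.53. In Eed-KO the shares were 23.5%, 23.3%, 17.3% and 15.7%. With all 11 HoxA genes on the array (394 probes) the HoxA shares were 28.2% in WT, 22.1% in Eed-KO and 45.7% in Dnmt1-KO, so in Eed-KO the order of HoxA and HoxD depends on which genes are counted. The lower HoxA share in Eed-KO than in WT also depends on the processing, with 14.5% in both after normexp background correction, and with 1.81% in WT and 4.52% in Eed-KO at a 3-fold bound level. Differences between clusters were not tested because there was 1 array per genotype. In Dnmt1-KO the shares were 49.4% in HoxA, 39.9% in HoxD, 32.1% in HoxC and 24.1% in HoxB. The median window difference between Dnmt1-KO and WT was 1.37 in HoxA, 1.17 in HoxD, 1.10 in HoxC and 0.32 in HoxB, where no promoter of 7 was higher by 1. After scaling these medians were -0.03, -0.02, -0.07 and -0.33. The highest WT windows of the other clusters were Hoxb3 at 1.23 ± 0.31, Hoxd10 at 1.19 ± 0.22 and Hoxc9 at 1.13 ± 0.54, within the range of the HoxA members.

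Genes flanking the cluster were lower. Of 12 listed neighbours, 10 had a window and 1 was at the bound level in WT (5.15% of all promoters), with a list median of 0.56 against 0.27 for all promoters. It was Evx1, a homeobox gene beyond the posterior end, at 1.32 ± 0.40. Next came Nfe2l3 at 0.93 ± 0.31, and the adaptor gene Skap2 was lowest at -0.17 ± 0.20. Only 1 of the 10 was higher in Eed-KO than in WT, and the list median difference was -0.13, against -0.04 over all promoters. Among 9 genes for the homeodomain partners of Hox proteins, 4 were at the bound level in WT and 4 in Eed-KO, against 5.15% and 5.76% of all promoters. In WT they were led by Pbx3 at 1.28 ± 0.47 and Meis2 at 1.27 ± 0.45, with Pknox1 lowest at -0.26 ± 0.24. Among 14 known regulators of Hox clusters, 12 had a window and 5 were at the bound level in WT and 5 in Eed-KO, against the same 5.15% and 5.76%. Cdx2, a caudal factor that activates Hox genes, had 1.46 ± 0.51 and the retinoic acid hydroxylase gene Cyp26a1 1.41 ± 0.51, while Men1, a subunit of the MLL complex, had 0.07 ± 0.27. These lists describe the surroundings of the cluster and show nothing particular to it.

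Outside the Hox clusters, the promoters whose 3 levels lay nearest to the HoxA medians (1.02 in WT, 1.03 in Eed-KO and 2.62 in Dnmt1-KO) were Tgfbr3, Ccn1, Cobll1, Tubb2b and Sh3rf3. The Euclidean distances over the 3 genotypes were 0.081, 0.086, 0.086, 0.094 and 0.099.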

How the data were processed

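ChIP-chip of Rybp was run for 3 genotypes of mouse ES cells on 2 array designs, 6 arrays in all. Per the labels, Cy5 held immunoprecipitated and Cy3 input DNA. Per the file headers, the deposited intensities were background-subtracted, detrended and dye-normalised by Agilent Feature Extraction, version 9.5.3.1 for WT and Eed-KO and 10.1.1.1 for Dnmt1-KO. The authors' deposited values, as log10 Cy5/Cy3 ratios, served as an alternative. Their medians on the first design were -0.025, -0.0317 and -0.121 for WT, Eed-KO and Dnmt1-KO. They differed from the scanner log ratios by 1 constant per array, whose choice is not stated.

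From the deposited intensities, log2 ratios were computed and centred on each array's median over non-control probes. Probes flagged as outliers on any genotype's array were dropped. Saturated probes stayed in (none among the members). Input was not well above background at 23 of 333 member probes in Dnmt1-KO, where the software used a multiplier of 13 in place of 2.6, and at none in WT or Eed-KO. Probe positions and gene names were those the Dnmt1-KO files list. A RefSeq gene table (GRCm38.p6) gave current symbols for 16943 of 17608 accessions. Promoters at a level of at least 1 were called bound, and differences of at least 1 were called among promoters bound in either genotype. The window procedure was tested on simulated data. The alternatives were normexp (limma 3.58.1, offset 50), the authors' table, other centring, array scaling, a lowess GC trend (span 0.3), other bound levels, other windows and other spot filters. Python 3.11.15 and R 4.3.3 were used.

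The members, gene lists and rules were chosen with earlier results of these data known. The text names all 9 members, the 2 highest and the lowest WT promoter of each list, the highest of each other Hox cluster, the 5 nearest non-Hox promoters, each member's highest WT probe where described, and the 3 highest and lowest probe differences per knockout. Further stretches and probes were chosen after their values were seen.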

Additional observations from a re-analysis of the deposited data

How the results depend on the processing

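No paired analysis was possible because each genotype had 1 array per probe. Under the alternatives, 80 values of the counts, shares and medians stayed within set limits, 33 moved further and 9 changed sign. The limits were 1.5 times a count, the binomial interval of a share, and the SD over promoters or over probes for a median. That interval takes probes as independent although neighbours share fragments, so it serves only to sort these values.

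Setting the arrays to 1 spread, with windows chosen again on that scale, gave 3 of 7 promoters bound in Dnmt1-KO (also 3 with the GC trend removed as well) and 10.8% of probes (9.94%). It turned the median Dnmt1-KO minus WT difference to -0.12 for promoters (-0.12) and -0.32 for probes (-0.33), and the small Eed-KO promoter difference to -0.0026 (-0.0198), with 18.1% of Eed-KO probes at the bound level under both steps. GC trend removal alone gave 43.4% of Dnmt1-KO probes. The authors' uncentred table gave 2 promoters bound in WT and 2 in Eed-KO, probe shares of 23.8%, 17.5% and 31.6% (WT, Eed-KO, Dnmt1-KO), and Dnmt1-KO differences of 1.05 for promoters and -0.15 for probes. Normexp gave shares of 14.5%, 14.5% and 42.8%. A 1.5-fold bound level gave 7 and 7 promoters in WT and Eed-KO and shares of 63.9%, 53.0% and 66.3%. A 3-fold level gave 0 and 0 promoters and shares of 1.81%, 4.52% and 25.6%. Over all probes of a gene 0 promoters of 8 were bound in WT and 0 in Eed-KO, with median differences of -0.10 (Eed-KO) and 0.24 (Dnmt1-KO). The 6 probes nearest the start gave 1 and 1 bound, -0.0640 and 0.26, where the medians of all start sets were -0.0601 and 0.52. Windows chosen on WT and Eed-KO gave 7 promoters bound in Eed-KO and a Dnmt1-KO difference of 0.71. Among the 7 members with a window, scaling with windows chosen again turned the Dnmt1-KO difference at all but Hoxa4 (0.15, and 0.18 with the GC trend). It became negative at Hoxa2 (-0.38 and -0.34), Hoxa5 (-0.32 and -0.52) and Hoxa6 (-0.0307 and -0.0313). The same held at Hoxa9 (-0.21 and -0.18), Hoxa10 (-0.0824 and -0.0792) and Hoxa11 (-0.12 and -0.12). In the windows chosen before scaling, the scaled differences of Hoxa2 (0.23) and Hoxa9 (0.006) stayed above 0. Those of Hoxa5, Hoxa6, Hoxa10 and Hoxa11 were below 0 there too. The cause of these shifts was not tested. Centring on the mode, windows of 4 probes and the spot filters moved none of the counts, shares and medians beyond those limits. Signal over background limited 23 member probes in Dnmt1-KO.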
